A study of Mus musculus with 4 samples.

Results

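The VEGF ligands, the neuropilins and angiopoietin 1 were followed in sorted basal cells of mouse mammary outgrowths with and without the microRNA miR-205. The group holds 7 genes chosen by symbol, Vegfa, Vegfb, Vegfc, Pgf, Nrp1, Nrp2 and Angpt1, out of 34615 gene rows in each library, and all 7 were matched and tested. Vegfa was put in the group as a published target of miR-205. The cells came from wild-type glands (WT; genotype label WTfl/flmTmGfl/fl cre+) or from glands with floxed miR-205 alleles (KO; genotype label miR205fl/flmTmGfl/fl cre+). Cells of both genotypes carried the mTmG reporter in the Rosa locus, were treated with a Cre adenovirus in culture and then grafted into SCID-Beige hosts aged 3 weeks. Outgrowths were collected after 8 weeks and pooled, 40 by the design text, and green CD24+ CD49f-high cells were sorted. There were 2 WT and 2 KO libraries. Adenoviral Cre acts in whichever cells it infects and marks them green, so the sort keeps cells that Cre reached, whatever their type before transplantation. The hosts lack T and B lymphocytes but supply their own vessels and fat pad to the outgrowths.

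VEGF-A is the main growth factor for blood vessels and signals through the receptor tyrosine kinases Kdr and Flt1. VEGF-B and placental growth factor (Pgf) bind Flt1, and VEGF-C acts mainly on lymphatic vessels through Flt4. Neuropilins are transmembrane co-receptors that hold VEGFs or class 3 semaphorins and present them to VEGF receptors or plexins, and they are found on epithelial cells as well as on vessels and nerves. Angiopoietin 1 activates the endothelial receptor Tek and is made mostly by cells around vessels. In the mammary gland the epithelium is a source of VEGF-A for the capillaries that surround the ducts.

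The sequences below show the miR-205 seed and the members whose 3′ ends hold a match to it. Capitals mark the seed of the microRNA, bases 2 to 8 from its 5′ end, and, in the transcripts, the bases that match all or part of it, together with the A after the match in Vegfa, which lies opposite base 1 of the microRNA. The mature microRNA is taken from RefSeq (GRCm38.p6, minus strand, chr1:193507503-193507524) and the transcript sites from the longest annotated 3′ untranslated region (UTR) of each gene in GENCODE M21.

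miR-205-5p: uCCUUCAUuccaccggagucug

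Vegfa site, bases 135 to 142 of a UTR of 1865: ccagaaagcctgacATGAAGGAagag

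Pgf site, bases 408 to 413 of a UTR of 776: ctggccccggctgcatTGAAGGcatg

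Nrp2 site, bases 2822 to 2827 of a UTR of 3325: gagtgtatgaatgaggTGAAGGgcca

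Vegfa was the 1 member with a match to the whole seed, ATGAAGG, and the base after it made it an 8mer, ATGAAGGA, a match that 4.1% of 18177 genes with an annotated 3′ UTR hold (11.2% hold ATGAAGG with any base after it). Pgf and Nrp2 held only the shorter match TGAAGG, which occurs in 33.9% of those genes, and Vegfb, Vegfc, Nrp1 and Angpt1 held none in the UTR searched. Only the transcript strand was searched, and the letters of 1 match lie inside those of the next longer one. Such a match is a description of the sequence.

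The libraries held 47953972 to 60030932 gene counts. KO replicate 2 stood apart: 12679 genes had a count there, against 18027 to 18897 in the other libraries, and the result of each member is given with and without it. Nothing in the labels says that replicates of a genotype came from separate pools, so p-values cover only the spread among these libraries, possibly technical. Mir205 itself had 0 counts in all 4 libraries and gave no check of the labels. Basal markers were abundant, with Krt5, the basal keratin, at 1219 to 1773 counts-per-million (CPM), Itga6, which encodes the sorted antigen CD49f, at 2021 to 2637 CPM and Acta2, smooth muscle actin of myoepithelial cells, at 2264 to 3707 CPM. Krt14 was not analysed here. CPM values throughout are scaled by TMM, a normalisation for library composition.

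The edgeR quasi-likelihood test was run over 15364 genes, of which 0 (0.0%) passed a Benjamini-Hochberg adjusted p under 0.05 and 147 (0.957%) had an unadjusted p under 0.05. Without KO replicate 2 these counts were 0 and 474. DESeq2 called 4 genes (0.026%) and limma voom called 0. Among the 7 members, 0 passed by edgeR, DESeq2 or limma voom, and 0 had an unadjusted edgeR p under 0.05. The unadjusted p of the members ran from 0.2814 to 0.8774, with an adjusted p of 0.9989 for each (edgeR quasi-likelihood test). The fitted log2 fold change of KO over WT was negative for 6 of 7 members and for 57.2% of all genes tested. Its median was -0.63 over the members and -0.14 over all genes tested. Without KO replicate 2 it was negative for 4 of 7, with medians of -0.14 and -0.04. Both KO libraries lay below both WT libraries for 3 members and above them for 0. Over all genes tested 19.2% lay below, 13.2% above and 32.4% on either side.

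**Figure D1:**
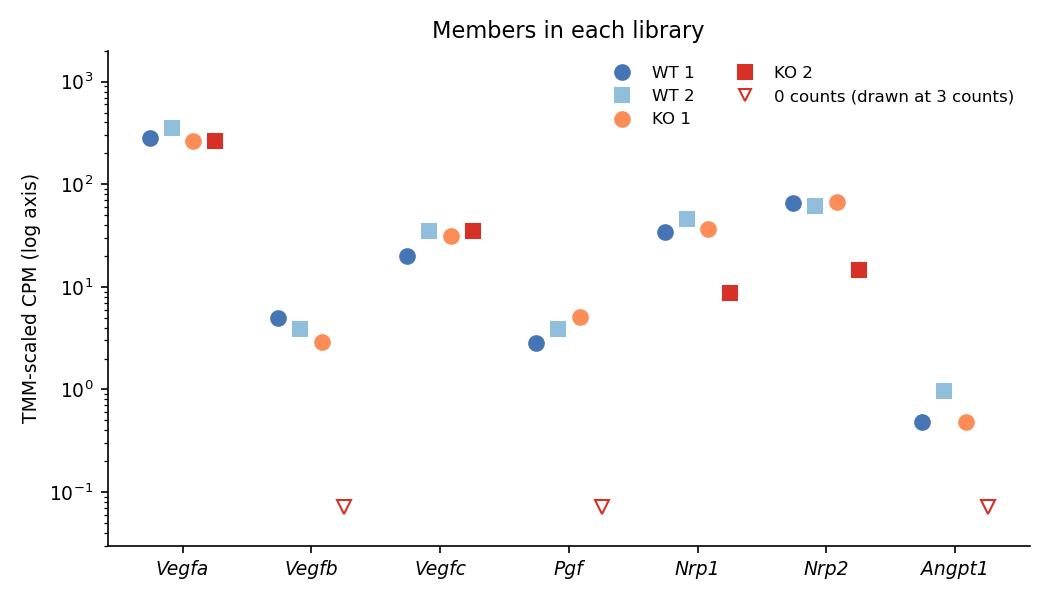
TMM-scaled CPM of the 7 genes on a log axis, 1 symbol per library, with libraries at 0 counts drawn as open triangles at the level that 3 counts would give. Vegfa lay between 262.5 and 351.3 CPM in all 4 libraries, while Nrp1 and Nrp2 were lowest in KO replicate 2 and Vegfb, Pgf and Angpt1 had 0 counts there.

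Vegfa (ENSMUSG00000023951), the member with the seed match, was also the most abundant, and its values in KO were lower than in WT without passing the test. It stood at 280.6 and 351.3 CPM in the WT pair and at 262.5 and 266.1 CPM in the KO pair. Both KO libraries lay below both WT libraries and close to each other, and the gap to the lower WT library was smaller than the gap between the WT libraries. The mean over the WT pair was 316.0 ± 49.99 CPM (SD, n = 2) and that over the KO pair 264.3 ± 2.522 CPM (SD, n = 2). The log2 fold change was -0.26 ± 0.21 (SE), with a 95% interval from -0.81 to 0.29 and an adjusted p of 0.9989 in the edgeR quasi-likelihood test. Without KO replicate 2 it was also -0.26, with an interval from -0.70 to 0.18, and the fold change was negative under all settings tried. The WT pair decides its size: it was -0.41 without WT replicate 1 and -0.09 without WT replicate 2. Among genes with a WT mean of 100 to 1000 CPM, the range in which Vegfa lies, 88.7% stayed within 2-fold of the WT mean in KO replicate 2 and 99.7% in KO replicate 1.

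Vegfb (ENSMUSG00000024962), a ligand of Flt1, was detected in 3 libraries and had no count in KO replicate 2. It had 283 and 229 counts in the WT pair, 181 for KO replicate 1 and 0 for KO replicate 2, or 5.022 and 3.849 CPM in the WT pair and 2.88 and 0 CPM in the KO pair. Both KO libraries lay below both WT libraries. KO replicate 1 held 64.92% of the WT mean, and KO replicate 2 was at least 61.7-fold lower than the WT mean when its 0 is read as 3 counts in that library. The log2 fold change was -0.62 ± 0.73 (SE) without KO replicate 2 and -1.62 ± 2.38 with it.

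Pgf (ENSMUSG00000004791), also a ligand of Flt1, differed in direction between the KO libraries. It stood at 2.804 and 3.849 CPM in the WT pair, at 5.06 CPM for KO replicate 1 and at 0 CPM for KO replicate 2. KO replicate 1 was the highest of the 4 libraries, at 152.1% of the WT mean, and KO replicate 2 the lowest, at least 46.3-fold below that mean. The log2 fold change was 0.61 ± 0.70 (SE) without KO replicate 2 and -0.39 ± 2.42 with it, so its sign rests on that library. Of 2242 genes with a WT mean of 3 to 8 CPM, the range of Vegfb and Pgf, 22% had 0 counts in KO replicate 2, against 0.0892% for the other KO library. The part of this lower detection in the values of both genes was not tested.

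Vegfc (ENSMUSG00000031520), the lymphatic growth factor, kept its level in KO replicate 2. It stood at 20.05 and 35.28 CPM in the WT pair and at 31.17 and 34.68 CPM in the KO pair. The KO libraries lay inside the range of the WT pair, so the groups overlapped. The log2 fold change was 0.25 ± 0.48 (SE), with an interval from -0.99 to 1.5, and it turned to -0.10 without WT replicate 1. Without KO replicate 2 it was 0.17 ± 0.42. Of genes with a WT mean of 8 to 30 CPM, 43.2% stayed within 2-fold of the WT mean in KO replicate 2, and Vegfc, at 125.4% of it, was among them.

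The neuropilins, which bind both VEGFs and class 3 semaphorins, were alike in the first 3 libraries and low in KO replicate 2. Nrp1 (ENSMUSG00000025810) stood at 34.6 and 45.92 CPM in the WT pair, 36.48 CPM for KO replicate 1 and 8.629 CPM for KO replicate 2. Nrp2 (ENSMUSG00000025969) stood at 64.93 and 60.97 CPM in the WT pair, 66.68 CPM for KO replicate 1 and 14.45 CPM for KO replicate 2. For both genes KO replicate 1 was level with WT, at 90.61% and 105.9% of the WT mean, while KO replicate 2 held 21.43% and 22.96% of it. The counts behind the low values were 360 for Nrp1 and 603 for Nrp2, far above the limit of detection.

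In the fit over all 4 libraries the log2 fold change was -0.84 ± 0.76 (SE; interval -2.80 to 1.13) for Nrp1 and -0.63 ± 0.74 (interval -2.53 to 1.27) for Nrp2. Without KO replicate 2 these became -0.14 ± 0.32 (interval -0.89 to 0.61) and 0.09 ± 0.24 (interval -0.49 to 0.66). Without KO replicate 1, when the lone KO library is KO replicate 2, they became -2.23 ± 0.41 and -2.13 ± 0.31, with adjusted p of 0.00761 and 0.004081 (edgeR quasi-likelihood test). In that fit Vegfb and Pgf were called as well, 4 of 7 members, where 5724 of 16392 genes were called (34.9%) and 22.5% were called lower in KO. The lone library is there assumed to vary like the WT pair. A level under 25% of the WT mean, as both neuropilins had in KO replicate 2, was found there in 6.66% of the 2522 genes with a WT mean of 30 to 100 CPM, and in 0.0397% of them in KO replicate 1. Whether the low neuropilin values belong to the genotype or to the library cannot be told apart with 2 KO libraries that differ.

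**Figure D2:**
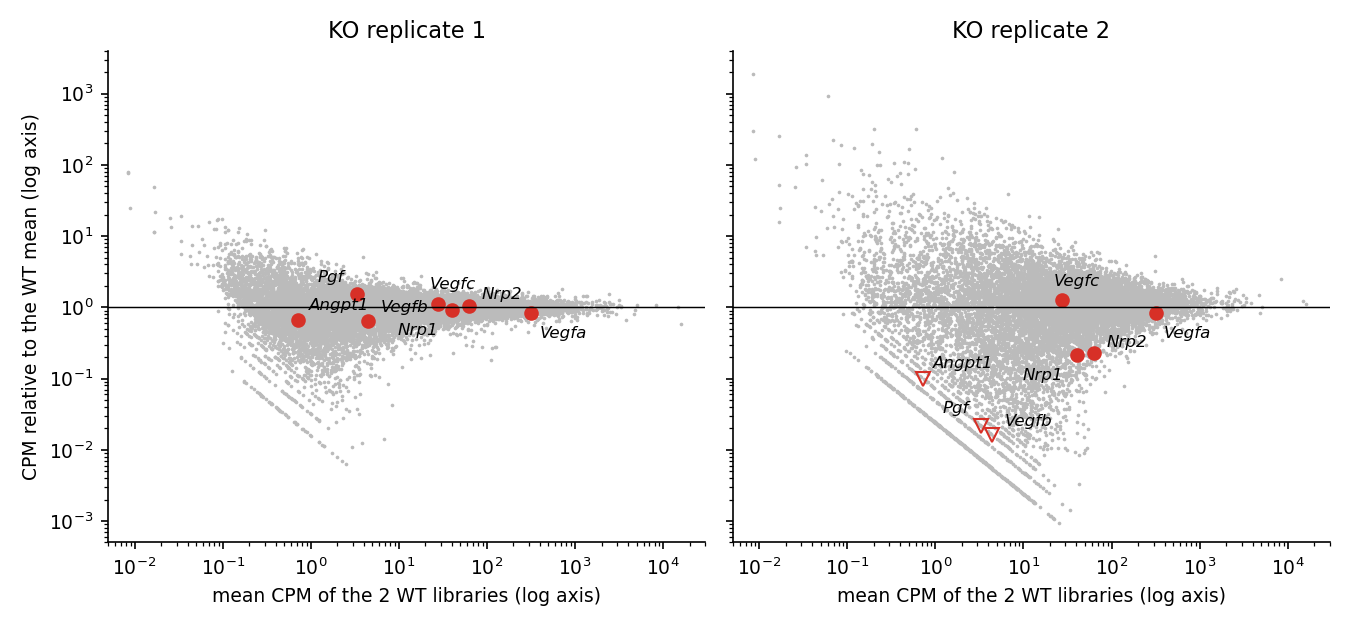
Level in each KO library relative to the WT mean, against the WT mean in CPM, both on log axes, with each tested gene above 0 in that KO library as a grey dot and the 7 genes in red (open triangles: 0 counts, drawn at 3 counts). In KO replicate 1 all 7 lie between 64.92% and 152.1% of the WT mean, and in KO replicate 2 Vegfa and Vegfc lie near 1 while Nrp1 and Nrp2 lie at 21.43% and 22.96%.

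Angpt1 (ENSMUSG00000022309), the Tek ligand, was barely detected in this sort. It had 27 and 57 counts in the WT pair, 30 for KO replicate 1 and 0 for KO replicate 2, or 0.4791 and 0.9581 CPM in the WT pair and 0.4773 and 0 CPM in the KO pair. KO replicate 1 was below WT replicate 1 by a margin far smaller than counting error, and KO replicate 2 was at least 9.99-fold below the WT mean. Among 2410 genes with a WT mean of 0.3 to 1 CPM, 64.0% had 0 counts in KO replicate 2, against 5.93% for the other KO library. The log2 fold change was -1.57 ± 2.42 (SE), and -0.59 ± 1.66 without KO replicate 2. An antisense gene, Gm17473, which was not analysed here, covers 14.2% of the exon bases of Angpt1 in the GRCm38 annotation, and reads of the 2 genes cannot be told apart without strand. Mir1903 lies in an Nrp1 exon with 0 counts in all libraries, Gm29083 and Gm37121 lie in Nrp2 introns and were not analysed here, and the 4 VEGF family members overlap no other gene.

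**Figure D3:**
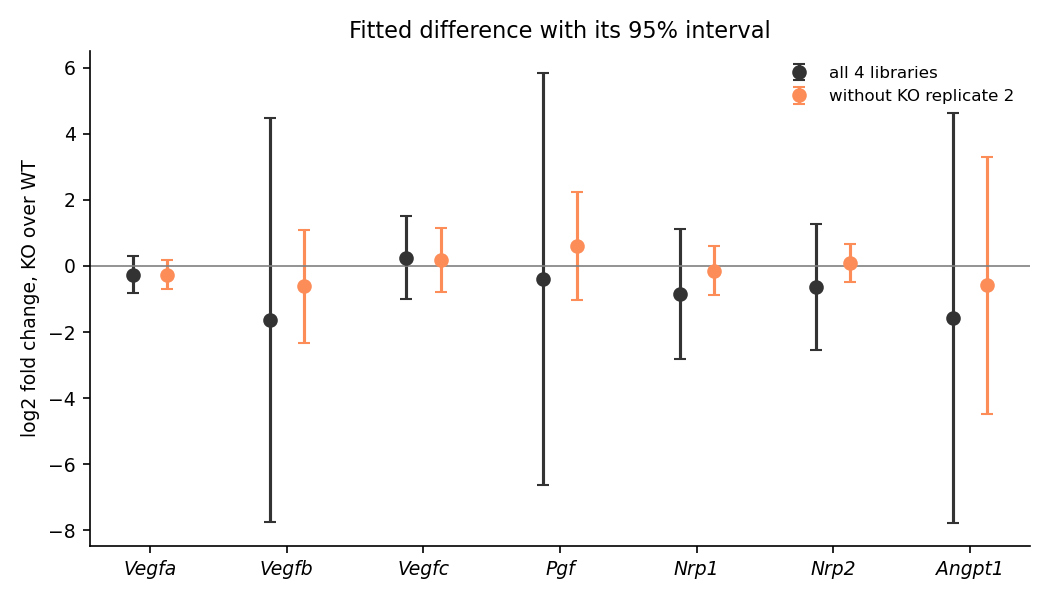
Fitted log2 fold change of KO over WT for each gene with its 95% interval, over all 4 libraries (black) and without KO replicate 2 (orange). All intervals include 0, and those of Vegfb, Pgf and Angpt1, which had 0 counts in KO replicate 2, are several log2 units wide over the 4 libraries.

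Levels of different genes were set side by side as CPM per kilobase of annotated exon. Vegfa led with 61.26 to 81.99 in the 4 libraries, followed by Vegfc with 8.188 to 14.41. Both stood clear of the genes below them, with no overlap between libraries. Nrp2, with 1.221 to 5.631, and Nrp1, with 0.8818 to 4.693, overlapped, as did Vegfb, with 0 to 3.129, and Pgf, with 0 to 1.743. Angpt1 was last, with at most 0.1841. Within every library Nrp2 stood above Nrp1, by ratios of 1.55 and 1.097 in WT and 1.51 and 1.384 in KO. That ratio stayed in the WT range for KO replicate 2, the library in which both genes were low. The lengths join all annotated exons of a gene (9785 bases for Nrp1, 11842 for Nrp2), so a gene with long exons that these cells do not use is set too low.

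Vegfa made up most of the VEGF ligand RNA by this scale. Of the summed level of Vegfa, Vegfb, Vegfc and Pgf per kilobase it took 84.2% and 81.9% in WT and 79.0% and 81.4% in KO. Vegfc took 10.5% and 14.4% in WT and 16.4% and 18.6% in KO. Its share was higher in both KO libraries than in both WT libraries, and an exact permutation test of 2 against 2 cannot go below 0.333. The summed ligand level was 77.78 and 100.1 CPM per kilobase in WT and 77.53 and 76.26 in KO. The ratio of Vegfa to the 2 neuropilins together was 7.261 and 8.331 in the WT pair, 6.546 for KO replicate 1 and 29.54 for KO replicate 2, so it too parts KO replicate 2 from the rest and not the genotypes.

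**Figure D4:**
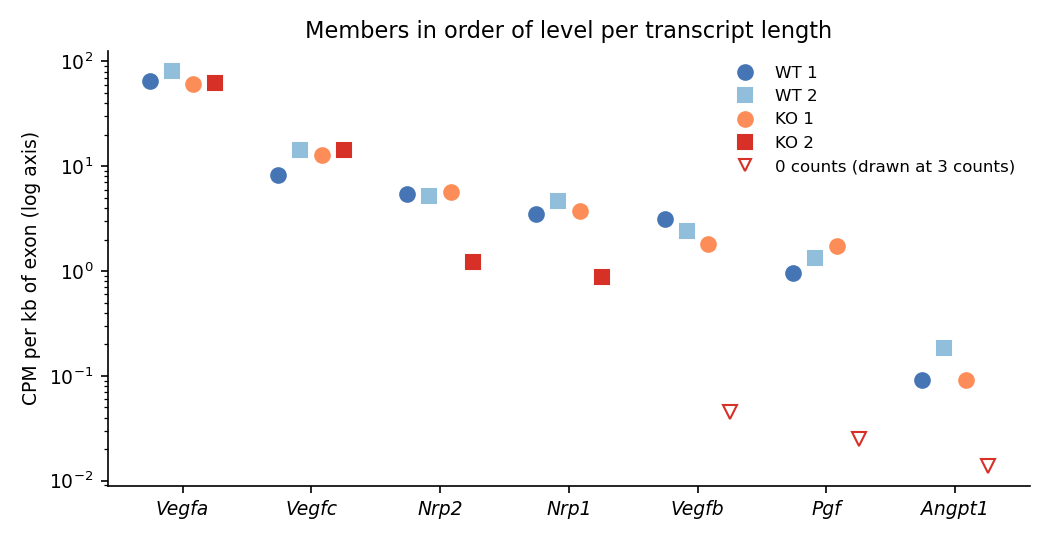
CPM per kilobase of annotated exon for each gene in each library, on a log axis and ordered by the mean over the 4 libraries, with 0 counts drawn as open triangles at 3 counts. Vegfa lies at 61.26 to 81.99 and Vegfc at 8.188 to 14.41, above all libraries of the other 5 genes.

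Among the VEGF and Tie receptors measured, Flt1 was the highest in the sort, with a mean of 42.05 CPM over the 4 libraries. Kdr, Tek and Tie1 were lower, with means of 8.951, 7.829 and 2.121 CPM. Kdr, the main signalling receptor of VEGF-A, stood at 13.19 and 10.27 CPM in the WT pair, 12.3 CPM for KO replicate 1 and 0.04794 CPM for KO replicate 2. Flt1, the receptor shared by VEGF-A, VEGF-B and Pgf, stood at 24.03 and 53.02 CPM in the WT pair and at 45.22 and 45.95 CPM in the KO pair. Flt1 thus kept its level in KO replicate 2 while Kdr, with 2 counts there, was nearly absent. Of 4 receptor genes measured (Kdr, Flt1, Tek, Tie1), 0 passed the edgeR test and 0 had an unadjusted p under 0.05, with 1 positive and 3 negative fold changes and a median of -0.68 (-0.22 without KO replicate 2). Flt4 was not analysed here.

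Endothelial markers were present at low levels beside these receptors. The 11 measured, which include Kdr, Tek and Tie1, summed to 108.6 and 194.9 CPM in the WT pair and 156.9 and 91.7 CPM in the KO pair. They were led by Cdh5, VE-cadherin of endothelial junctions, at 41.99 and 89.96 CPM in the WT pair and 83.13 and 42.11 CPM in the KO pair. Cldn5 had 0 counts in KO replicate 2, and 0 of the 11 passed the edgeR test, with 0 at an unadjusted p under 0.05, 2 positive and 9 negative fold changes and a median of -0.56 (4 and 7, and -0.14, without KO replicate 2). Robo4, among the positive ones, stood at 17.67 CPM in KO replicate 2 against a WT mean of 5.111. The 8 pericyte markers summed to 159.7 and 278.6 CPM in the WT pair and 198.1 and 225.2 CPM in the KO pair, with Pdgfrb, Cspg4 and Kcnj8 at 0 in KO replicate 2. Kcnj8 had only 1 and 33 counts in the WT pair. Notch3 and Des were higher in KO replicate 2, at 51.03 and 13.93 CPM against WT means of 13.73 and 2.924. Mcam held 128.0% of its WT mean there, Abcc9 101.6% and Rgs5 42.88%. The 9 fibroblast markers summed to 580.6 and 641.7 CPM in the WT pair and 688.0 and 919.4 CPM in the KO pair, with Dpt at 0 in KO replicate 2. Most of the sum was Fbn1, at 383.8 and 406.8 CPM in the WT pair and 399.1 and 487.0 CPM in the KO pair. In KO replicate 2 Pdgfra was higher, at 24.45 CPM against a WT mean of 10.71. Thy1 was lower there, at 1.654 CPM against 6.826. Of the 9, 5 had a positive and 4 a negative fold change. Dcn and Col6a1, the latter named after its values were seen, had an unadjusted edgeR p under 0.05 over the 4 libraries. Their log2 fold changes were 0.94 and 1.15, and 0.65 and 0.70 without KO replicate 2. The 9 immune markers summed to 67.33 and 150.6 CPM in the WT pair and 98.54 and 318.8 CPM in the KO pair, mostly Cd74, with Adgre1, Tyrobp and Fcer1g at 0 in KO replicate 2. Adgre1 had only 0 and 1 counts in the WT pair. Ptprc and Cd3e were higher in KO replicate 2, at 25.02 and 2.996 CPM against WT means of 3.323 and 0.558. Csf1r, Lyz2 and Cd79a were lower there than in WT. The 9 luminal markers summed to 926.3 and 1410 CPM in the WT pair and 1045 and 1555 CPM in the KO pair, and Elf5 was at 0 in KO replicate 2. Foxa1 and Prlr were higher there, at 89.09 and 210.1 CPM against WT means of 9.8 and 61.19. Kit and Esr1 were lower, at 1.438 and 5.489 CPM against WT means of 21.61 and 23.01. Krt8, Krt18, Epcam and Pgr held 78.11% to 130.3% of theirs. The 3 lymphatic markers (Prox1, Lyve1, Reln) summed to 245.8 and 333.2 CPM in the WT pair and 315.9 and 616.0 CPM in the KO pair, nearly all of it Reln, while Prox1 and Lyve1 had negative fold changes. The 6 adipocyte markers summed to 26.12 and 40.86 CPM in the WT pair and 41.29 and 150.8 CPM in the KO pair, nearly all of it Fabp4 and Lpl, with Adipoq at 0 in 3 libraries.

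The genes of these lists did not all follow the sums. Among tested genes 4 of 8 pericyte, 5 of 9 fibroblast, 4 of 8 immune, 4 of 9 luminal (1 of 9 without KO replicate 2), 1 of 3 lymphatic and 1 of 2 adipocyte markers had a positive fold change, and 0 passed the edgeR test. The medians, in that order, were 0.09, 0.16, 0.19, -0.06, -0.81 and 0.92, and without KO replicate 2 they were -0.18, 0.02, -0.30, -0.36, -0.41 and -0.80. Of 9 basal markers, those of the sorted type, 6 had a positive and 3 a negative fold change, with a median of 0.28. Without KO replicate 2 these were 8 and 1, with a median of 0.3, and 0 passed the edgeR test over the 4 libraries. The part of cells of other types in the values of the VEGF genes and neuropilins was not tested. In sorted bulk samples fewer cells of a type and less RNA per cell cannot be told apart.

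Partners of the neuropilins included genes with far higher counts than the neuropilins themselves. Plxna1, a plexin that forms semaphorin receptors with neuropilins, stood at 261.9 and 241.0 CPM in the WT pair and at 206.2 and 250.7 CPM in the KO pair. Sema3c, a secreted semaphorin that binds both neuropilins, stood at 194.9 and 222.6 CPM in the WT pair and at 201.1 and 183.6 CPM in the KO pair. Both genes overlapped between genotypes, and both held their level in KO replicate 2, unlike Nrp1 and Nrp2. Several less abundant partners were low there like the neuropilins. Plxna4 held 23.96% of its WT mean, Plxnd1 35.11%, Gipc1 28.16%, Sema3e 36.07% and Sema3d 2.811%, and Sema3a and Sema3g had 0 counts. Plxna2 held 91.13% of its WT mean, Sema3f 119.8%, Sema3b 151.5% and Plxna3 200.7%. Of 13 plexins, class 3 semaphorins and the adaptor Gipc1, 0 passed the edgeR test, with 0 at an unadjusted p under 0.05. There were 4 positive and 9 negative fold changes with a median of -0.19 (5 and 8, and -0.08, without KO replicate 2), against -0.14 for all genes tested.

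Among related ligands, Vegfd was far below WT in both KO libraries. Vegfd (ENSMUSG00000031380), which like VEGF-C acts on lymphatic vessels, had 120 and 73 counts in the WT pair, 4 for KO replicate 1 and 0 for KO replicate 2. Its level was 2.13 and 1.227 CPM in the WT pair and 0.06364 and 0 CPM in the KO pair, 26.4-fold below the WT mean in KO replicate 1 and at least 23.3-fold below it in KO replicate 2. The log2 fold change was -5.57 ± 2.35 (SE), and -4.67 ± 1.67 without KO replicate 2. The unadjusted p was 0.06421 (0.02532 without KO replicate 2) and the adjusted p 0.9989 (0.9998) in the edgeR quasi-likelihood test, so it did not pass over all genes. Vegfd was chosen after its values were seen. At 73 to 120 counts in WT it is a rare transcript in this sort. Of 2365 genes with a WT mean of 1 to 3 CPM, 11% lay under 25% of the WT mean in KO replicate 1 and 63.4% in KO replicate 2. Vegfd held 3.792% of its WT mean in KO replicate 1, far under that cutoff, and the share of genes as low as that was not counted.

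Angpt2, the other major angiopoietin, stood at 8.838 and 10.46 CPM in the WT pair and at 6.062 and 0.1918 CPM in the KO pair, below WT in both KO libraries and far lower in KO replicate 2. It was named after its values were seen. Pdgfa and Angptl4 were the most abundant relatives. Pdgfa, a growth factor for fibroblasts of the same cystine-knot superfamily, stood at 82.39 and 110.5 CPM in the WT pair and at 106.6 and 127.3 CPM in the KO pair, with overlap. Angptl4, a secreted inhibitor of lipoprotein lipase, stood at 407.6 and 406.8 CPM in the WT pair and at 417.1 and 640.5 CPM in the KO pair. Of 13 related ligands 11 were tested and 0 passed the edgeR test, with 7 positive and 4 negative fold changes and a median of 0.27 (8 and 5 of 13 tested, and 0.15, without KO replicate 2). The 1 with an unadjusted p under 0.05 was Angptl2, named after its values were seen, at 14.66 and 15.58 CPM in the WT pair, 21.27 CPM for KO replicate 1 and 154.5 CPM for KO replicate 2.

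Hypoxia drives Vegfa transcription through the factors Hif1a and Epas1, and the genes of this pathway were measured as context. Hif1a stood at 392.4 and 404.0 CPM in the WT pair and at 383.2 and 573.5 CPM in the KO pair. Epas1 stood at 356.7 and 357.3 CPM in the WT pair and at 325.8 and 212.5 CPM in the KO pair, below WT in both KO libraries. Of 8 genes of oxygen sensing 0 passed the edgeR test and 0 had an unadjusted p under 0.05, with 4 positive and 4 negative fold changes and a median of 0.02 (-0.17 without KO replicate 2). Of 10 hypoxia-induced genes other than Vegfa 0 passed, with 5 positive and 5 negative and a median of 0.02 (0.07 without KO replicate 2). Of these, 2 had an unadjusted p under 0.05, as did 0.957% of all genes tested. Both KO libraries lay above both WT libraries for 3 of the 10 and below them for 2, against 13.2% and 19.2% of all genes tested. Ldha, lactate dehydrogenase A, was 1 of the 2 with an unadjusted p under 0.05. It stood at 469.1 and 479.1 CPM in the WT pair and 650.4 and 739.0 CPM in the KO pair. Its log2 fold change was 0.55 ± 0.18 (SE) with an adjusted p of 0.9989 in the edgeR quasi-likelihood test (0.46 without KO replicate 2). The other was Adm, the vasodilator peptide adrenomedullin, named after its values were seen, at 5.377 and 4.925 CPM in the WT pair, 9.149 CPM for KO replicate 1 and 57.36 CPM for KO replicate 2. The log2 fold change of Adm was 2.69, and 0.83 without KO replicate 2. Ndrg1, a stress-responsive gene induced by hypoxia, stood at 473.0 and 551.5 CPM in the WT pair and at 408.7 and 495.4 CPM in the KO pair.

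Proteins that bind the Vegfa mRNA and set its stability made up a list of 6 genes, of which 0 passed the edgeR test and 0 had an unadjusted p under 0.05, with 3 positive and 3 negative fold changes and a median of -0.04 (-0.03 without KO replicate 2). Zfp36l2, of the tristetraprolin family that destabilises AU-rich mRNAs, stood at 530.8 and 589.5 CPM in the WT pair and at 562.2 and 774.5 CPM in the KO pair. Zfp36, tristetraprolin itself, stood at 500.8 and 536.6 CPM in the WT pair and at 496.7 and 601.6 CPM in the KO pair. Both overlapped between genotypes, and the sign of the small Zfp36 difference (0.08) changed with the scaling.

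The list drawn up as inhibitors of angiogenesis was dominated by Thbs1. This gene, which encodes thrombospondin 1, a matrix protein that blocks endothelial growth, stood at 4910 and 5174 CPM in the WT pair and at 5463 and 5031 CPM in the KO pair, with overlap and a log2 fold change of 0.06 ± 0.16 (SE) whose sign changed with the scaling. Adamts1, a metalloprotease that binds VEGF-A, stood at 503.1 and 713.2 CPM in the WT pair and at 389.7 and 753.4 CPM in the KO pair, so the KO libraries lay on either side of WT. The list held 7 measured genes, Thbs1, Thbs2, Col18a1, Vash1, Vash2, Adamts1 and Spry1, whose action on vessels was not tested. Of these 0 passed the edgeR test and 0 had an unadjusted p under 0.05. There were 2 positive and 5 negative fold changes, with a median of -0.17 (-0.06 without KO replicate 2). Per kilobase of exon Thbs1 averaged 847.1 CPM over the 4 libraries, against 67.71 for Vegfa.

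**Figure D5:**
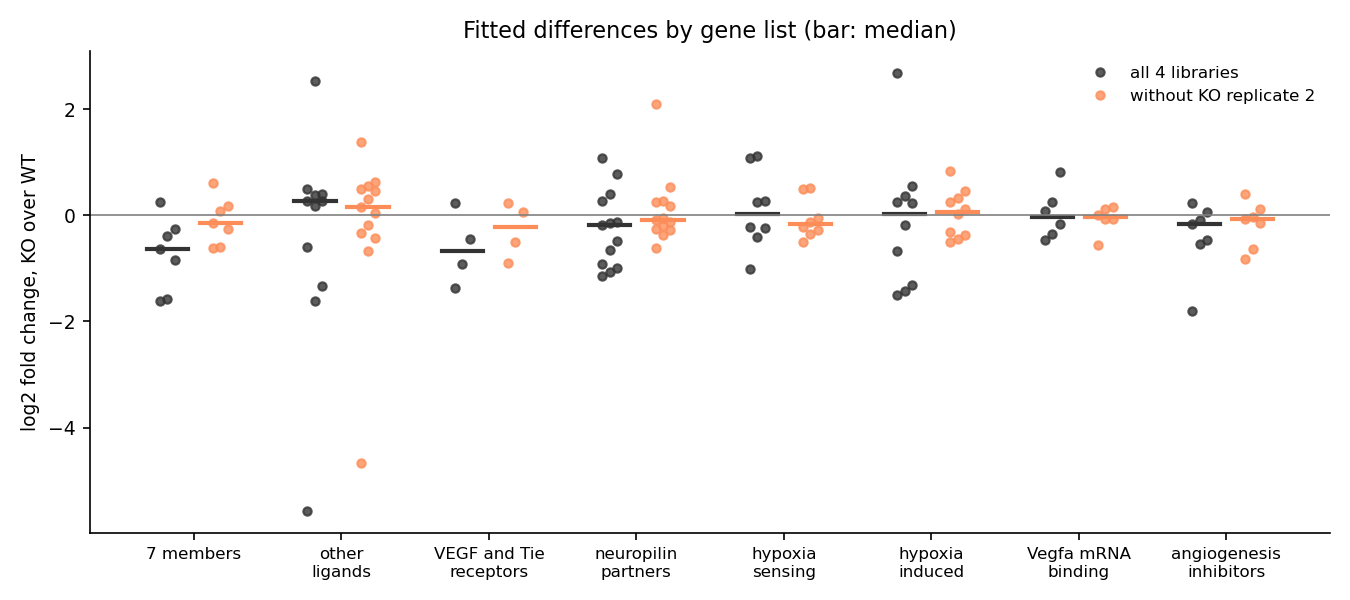
Fitted log2 fold change of KO over WT for each tested gene of the 7 members and of 7 gene lists, over all 4 libraries (black) and without KO replicate 2 (orange), with bars at the medians. The median of the members moves from -0.63 to -0.14 when KO replicate 2 is left out, and the lowest points, -5.57 and -4.67 among the other ligands, are Vegfd.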

How the data were processed

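RNA of sorted basal cells was measured by sequencing of total RNA, 2 libraries per genotype. The deposited values are raw read counts per Ensembl gene. TopHat2 (2.02), HTSeq and the mouse build NCBIM37 (mm9) are named in the submitters' processing notes. The release of the annotation and how HTSeq treated strand and overlaps are not given in the sources. No reads were realigned. The 5 summary rows were dropped before scaling. Reads in no feature made up 57.59% to 61.52% of counted lines and ambiguous reads 0.71% to 0.79%. Symbols, exon lengths and 3′ UTRs came from GENCODE M21 (GRCm38), joined by identifier (86.9% of rows, 98.6% of counts). Its build differs from that of the counts, and no coordinates of genes are printed. Chromosome 11 genes, with 1 exception, and mitochondrial genes were not analysed here.

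The main test was that of edgeR 4.0.16 (R 4.3.3): filterByExpr, TMM, quasi-likelihood test of genotype without a replicate block, two-sided, Benjamini-Hochberg adjustment over all tested genes. SEs were taken from the fold change and its F statistic, and 95% intervals from the test's degrees of freedom. A count of 0 was read as up to 3 counts, 0.04773 to 0.07191 scaled CPM, a limit that covers counting error only. The 95% intervals of fold changes also hold the fitted spread between libraries. DESeq2 1.42.0 and limma 3.58.1 were alternatives, with other scalings and filters, a replicate block and each library left out. The procedure was tested on simulated counts. The common biological coefficient of variation, the spread of libraries within a genotype beyond counting noise, was 0.932 over the 4 libraries. With such a spread and 2 libraries per genotype, a gene that did not pass is not shown to be unchanged. Tables and figures were made with Python 3.11.15, pandas 2.3.3 and matplotlib 3.10.9.

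The members and gene lists were chosen with earlier results of these data known. The genes named were the members, the 2 most abundant tested genes of each list, genes overlapping a member, and, for the 3 most abundant members, the 2 protein-coding genes at a mean of 50 CPM or more with the smallest Euclidean distance in centred log2(CPM + 1). Krt5, markers at 0 counts and Fabp4, Lpl, Reln, Prox1 and Lyve1 were named outside this rule. Outside it too were markers and neuropilin partners named for their levels in KO replicate 2, and list members that are only spelled out. Other such names are stated as chosen after their values were seen.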

Additional observations from a re-analysis of the deposited data

How the results depend on the processing

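The count of 0 called members held under every scaling, filter and test tried, and with libraries left out it ran from 0 to 4, the latter without KO replicate 1. Over all genes the count of 0 became 4 with DESeq2 and ran from 0 to 5724 with libraries left out. It was 5 without either WT library, 5724 without KO replicate 1 and 0 without KO replicate 2. Upper quartile and total count scaling moved the median gene by -0.09 and -0.10 and turned Zfp36 to -0.04 and -0.06, and Thbs1 to -0.05 and -0.06. With a library left out, log2 fold changes that crossed 0 ran from -0.10 to 0.72 for Vegfc, from -10.45 to 0.61 for Pgf, from -2.13 to 0.09 for Nrp2, from -0.22 to 0.92 for Flt1, from -7.87 to 0.07 for Kdr, from -0.05 to 0.52 for Hif1a, from -0.06 to 0.21 for Zfp36, from -0.01 to 0.12 for Thbs1 and from -0.64 to 0.30 for Adamts1. The values of Pgf and Kdr at the low end compare WT with KO replicate 2 alone and depend on the prior count. Apart from the missing library, the cause was not tested. Vegfa, Vegfb, Nrp1 and Angpt1 stayed negative under all settings in which they were tested (Vegfb, Pgf and Angpt1 were not tested at a mean CPM of 5 or more). Counting shorter matches raised the members with a miR-205-5p match from 1 to 3.

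With a replicate block 0 genes and 0 members were called, and 79 genes had an unadjusted p under 0.05. The replicate numbers are not stated to pair libraries, and deviations of same-numbered libraries from their group means correlated at 0.010 over 15364 genes. KO replicate 2 held 47953972 gene counts, the fewest, against 53067076 to 60030932 in the others, and Vegfb, Pgf, Angpt1 and Vegfd had 0 counts there. The cause of its lower detection was not tested.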

Other observations

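Vegfa was set beside all genes, itself included, that carry the 8mer ATGAAGGA in the longest annotated 3′ UTR. Of 539 such genes tested, 271 had a positive and 268 a negative fold change of KO over WT, with a median log2 fold change of 0.01 and quartiles of -0.42 and 0.42, and 0 passed the edgeR test. Of 12092 genes with a 3′ UTR but no 8mer, 43.6% were positive, with a median of -0.12. Without KO replicate 2 the medians were 0.02 over 571 genes with the 8mer and -0.02 over 12887 genes without it. The sets with and without the 8mer were not matched for UTR length or for level. The part of these in the difference between the sets was not tested. Vegfa, at -0.26, lay on the negative side of the median of the genes with the 8mer and inside their quartiles in both fits at the printed precision (lower quartile of -0.27 without KO replicate 2).

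The genes with the most similar pattern over the 4 libraries were found by distance in centred log2(CPM + 1) among 3491 or 3492 abundant protein-coding genes. For Vegfa they were Usf3 (distance 0.064) and Iffo2 (0.068), where the median gene lay at 0.64. For Nrp2 they were Tcf25 (0.042) and Gpi1 (0.081), and for Nrp1 they were Bace1 (0.1) and Cltb (0.121). Tcf25 had 184.8 and 173.3 CPM in the WT pair and 196.5 and 42.98 CPM in the KO pair, and Bace1 had 58.3 and 78.67 CPM in the WT pair and 59.28 and 13.93 CPM in the KO pair. Both were picked for their closeness to the neuropilins over these same libraries, so their like drop in KO replicate 2 alone follows from the choice.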
